A study of Mus musculus with 36 samples.

Results

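The genes described here are the 10 prostaglandin and leukotriene synthesis genes Pla2g4a, Ptgs1, Ptgs2, Ptges, Ptges2, Ptges3, Tbxas1, Alox5, Alox5ap and Lta4h, chosen by symbol from the 19879 genes of the deposited tables. They were measured by poly(A)+ RNA sequencing in BV-2 cells, an immortalized mouse microglial line labelled as wild-type, in 12 groups of 3 libraries. Cells received lipopolysaccharide (LPS) at 600 ng/mL alone, LPS with 30 µM dimethyl fumarate (DMF), LPS with 30 µM monomethyl fumarate (MMF), LPS with 6 µM cannabidiol (CBD), or a vehicle without LPS, which was dimethyl sulfoxide (DMSO) or ethanol (EtOH), for 4 h or 24 h. The vehicle was at 0.2% in every group, DMF and MMF were dissolved in DMSO and CBD in EtOH, and serum was lowered in all cultures just before the drugs were added. The labels do not say which vehicle the cells with LPS alone received. In each comparison of a drug with LPS against LPS alone, the drug and its solvent therefore cannot be told apart.

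Prostaglandins and leukotrienes are lipid signals made from arachidonic acid. Cytosolic phospholipase A2 frees the acid from membranes, cyclooxygenases turn it into prostaglandin H2 for prostaglandin E and thromboxane synthases, and 5-lipoxygenase with its activating protein turns it into leukotriene A4 for leukotriene A4 hydrolase. In microglia, the inducible cyclooxygenase is a classical marker of the response to LPS.

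The 36 libraries held between 14110424 and 26676607 gene-assigned reads. The microglial and myeloid markers Csf1r, Itgam, Trem2, Cd68 and Ptprc each reached 1 RPKM (reads scaled to transcript length and to the assigned reads of the library) in every library, while Aif1, Cx3cr1, P2ry12 and Tmem119, which also mark microglia, did not, with lowest values of 0.389, 0.152, 0.400 and 0.496 RPKM and highest values of 2.75, 5.69, 2.56 and 5.80. Markers of neurons, astrocytes, fibroblasts, mast cells and T cells summed to at most 0.385 RPKM in any group, while the oligodendrocyte list summed to 22.0 to 39.1 RPKM, with Mbp as its only gene at or above 1 RPKM in every library. Levels below are normalized counts, the recovered reads divided by size factors set over all 36 libraries. These are bulk samples, in which fewer cells expressing a gene and less of its RNA per cell cannot be told apart.

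Sequences at the start of Ptgs2, Ptges and Alox5 are shown because these genes held the largest differences. They are RefSeq sequences on GRCm38.p6, written 5′ to 3′ on the gene's own strand. Capitals mark matches to motifs searched on both strands in the window from 250 bases before to 30 bases after the RefSeq start. A longer GENCODE transcript covers the whole Ptgs2 window, so only 30 bases around its motifs are printed each time, and a Ptges transcript starts within the Ptges window, so that stretch ends before the window does.
Ptgs2 at chr1:150099951-150099980, plus strand, with a C/EBP match: cgctgcggttcTTGCGCAActcactgaagc
Ptgs2 at chr1:150100031-150100060, plus strand, with a CRE and an overlapping E-box match: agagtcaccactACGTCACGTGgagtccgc
Ptges at chr2:30903314-30903547, minus strand: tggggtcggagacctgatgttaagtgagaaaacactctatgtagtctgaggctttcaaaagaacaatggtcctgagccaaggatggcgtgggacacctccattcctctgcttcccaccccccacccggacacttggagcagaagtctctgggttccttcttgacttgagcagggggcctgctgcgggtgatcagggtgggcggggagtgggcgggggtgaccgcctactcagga
Alox5 at chr6:116461149-116461428, minus strand: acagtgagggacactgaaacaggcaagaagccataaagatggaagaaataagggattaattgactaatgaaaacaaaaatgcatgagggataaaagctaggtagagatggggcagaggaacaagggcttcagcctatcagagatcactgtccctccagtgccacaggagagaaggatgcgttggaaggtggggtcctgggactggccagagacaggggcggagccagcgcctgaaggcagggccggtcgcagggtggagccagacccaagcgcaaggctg

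Windows were found for 9 of the 10 genes. The C/EBP motif (TTGCNNAA) was present in the Ptgs2 window and in 10.4% of all 32851 RefSeq windows of this length. The CRE motif (TGACGT) was in 7.26% of them and the E-box (CACGTG) in 6.79%, and in the Ptgs2 window the last 2 letters of the CRE match, read on the plus strand, are the first 2 of the E-box. Among the other members, Ptges2 held an E-box, Tbxas1 an AP-1 match (TGANTCA, 7.46% of windows) and Ptges3 an ARE match (TGACNNNGC, 11.5%). The NF-kB motif, present in 4.22% of windows, matched in none of the members' windows, and the Ptges and Alox5 windows held none of the 6 motifs. A match describes the letters of the window and is not evidence of binding. A missing match covers only the pattern searched and this window, and sequence farther from the start was not searched.

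Per transcript length, Ptgs2 had the highest median over the 12 groups of the 10 genes, at 262 RPKM. Ptges3 followed at 109 RPKM, Pla2g4a at 76.2, Ptgs1 at 30.9, Lta4h at 27.5, Alox5ap at 23.4, Ptges2 at 6.19, Ptges at 4.29, Alox5 at 3.87 and Tbxas1 at 2.13. Counted over the union of all annotated exons, Lta4h and Alox5ap changed places and the other ranks stayed. The order within single groups differed from that of the medians, which cover mostly groups with LPS. With DMSO at 4 h, Ptgs2 was at 44.7 RPKM, below Ptges3 at 124 and Pla2g4a at 64.1. With EtOH at 4 h it was at 48.8, against 132 and 69.7. Ptges was also below Alox5 with DMSO at 4 h, at 1.625 against 4.004 RPKM. Of the group means of normalized counts, those of Ptgs2 covered the widest range, 3.68 on the log2 scale, followed by Alox5 with 2.75, and those of Lta4h the narrowest with 0.41.

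**Figure D1:**
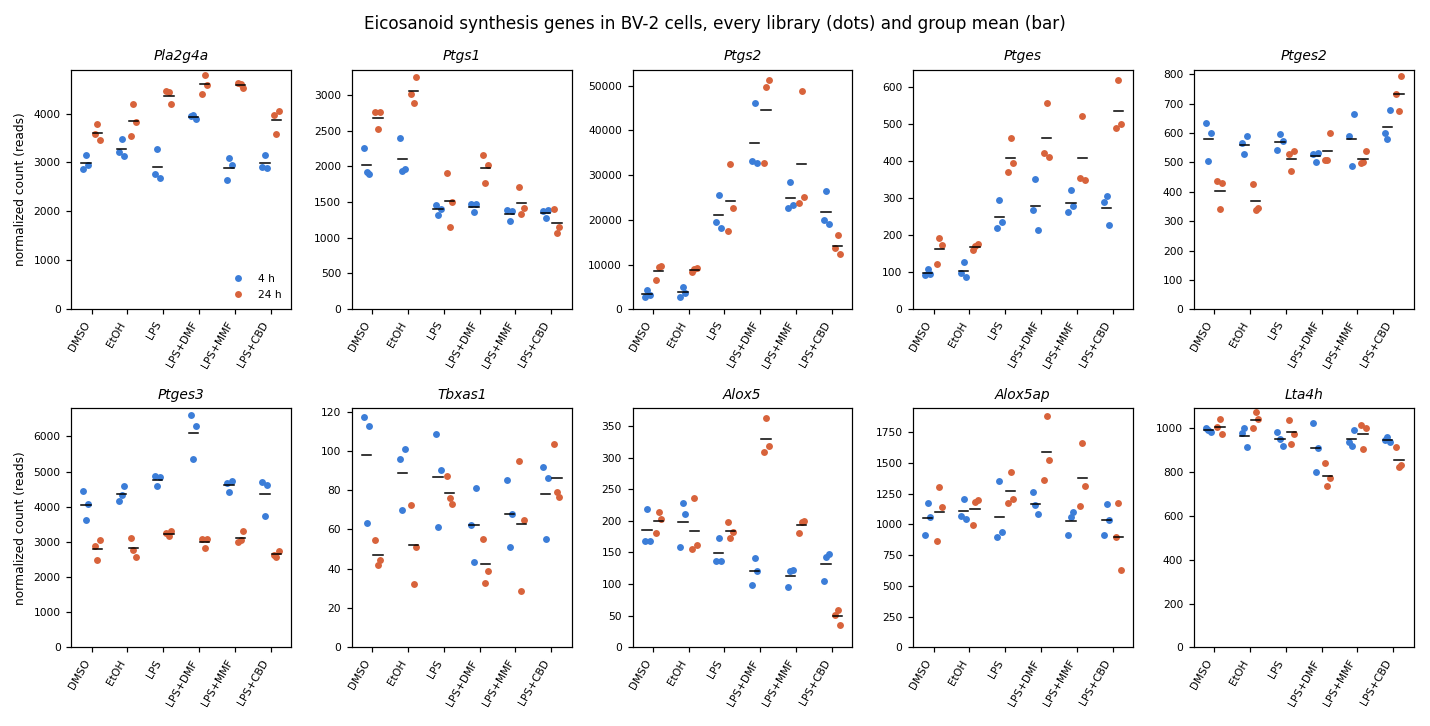
Normalized counts (reads, linear axes from 0) of the 10 genes in every library (dots, blue 4 h and orange 24 h) of the 6 treatments on the x axis, with group means as black bars. Ptgs2 lies between 2785 and 9761 in all vehicle libraries and between 12397 and 51159 in all LPS libraries, and Alox5 spans 35.8 to 362.

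In cells given LPS alone for 4 h, 2 members rose against DMSO and 1 fell, and the same 3 did so against EtOH: Ptgs2 and Ptges were higher and Ptgs1 was lower. In the comparison with DMSO, 14.1% of the 11424 genes tested changed, and in that with EtOH, 10.2% of 11491. After 24 h, 5 members rose and 1 fell against DMSO, where 22.7% of all genes tested changed, and 3 rose and 1 fell against EtOH, where 20.5% changed. The LPS libraries are the same in both comparisons at each time, so the 2 vehicles do not give independent estimates. All vehicle libraries are numbered as replicates 4, 5 and 6 and all LPS libraries as 1, 2 and 3. LPS and the set of replicates thus cannot be told apart in these comparisons or in their differences between the times. All 10 genes were tested in every comparison, that is, each had a normalized count of at least 10 in at least 3 of the libraries compared. At 4 h the libraries of LPS and DMSO did not overlap for 5 of 10 members and for 35.7% of all genes tested. Against EtOH this held for 4 members and 31.4%. At 24 h it held for 7 members and 39.9% against DMSO, and for 6 and 37.6% against EtOH.

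The 3 genes that moved with LPS at both times against both vehicles were a cyclooxygenase pair and 1 terminal synthase. Ptgs2, on chromosome 1 at 149975782 to 149983978 (GRCm39), encodes the inducible cyclooxygenase COX-2. At 4 h its normalized counts were 2785, 4336 and 3268 with DMSO, 2794, 5029 and 3643 with EtOH, and 19544, 25437 and 18157 with LPS. Every LPS library was above every vehicle library. LPS raised it by a log2 fold change of 2.61 ± 0.176 (SE) against DMSO, 6.09-fold, with an adjusted p of 6.12e-05, and 2.49 ± 0.209 against EtOH, with an adjusted p of 0.000336.

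At 24 h Ptgs2 stood at 17503, 32507 and 22737 with LPS, against 6530, 9448 and 9761 with DMSO and 8337, 8952 and 9221 with EtOH. The groups again did not overlap, though the vehicle libraries were higher than at 4 h. LPS raised Ptgs2 by 1.49 ± 0.205 against DMSO (adjusted p = 0.000422) and 1.42 ± 0.173 against EtOH (adjusted p = 0.000165). LPS raised Ptgs2 less at 24 h than at 4 h by the interaction test: the difference between the times was -1.14 ± 0.309 on the log2 scale against DMSO, with an adjusted p of 0.0336, in a test where 9.46% of all genes were called. Against EtOH it was -1.08 ± 0.304, with an adjusted p of 0.04, where 9% were called. Ptgs2 was the only member called in either. Neither call is firm: leaving out single libraries gave adjusted p-values of 0.0115 to 0.0937 and 0.0105 to 0.1. Against DMSO the call was lost without DMSO replicate 4 or 6 or LPS replicate 2 at 4 h, or DMSO replicate 5 or 6 or LPS replicate 1 or 3 at 24 h, and by DESeq2 (adjusted p = 0.05). Among the fits against EtOH with a library left out, it held only without EtOH replicate 5 at 4 h or LPS replicate 2 at 24 h. The call against EtOH was lost by edgeR (0.0516), by DESeq2 (0.0767) and with no filter (0.0597). It held with TMM scaling and with a pseudocount of 5.

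Ptgs1, which encodes the constitutive cyclooxygenase COX-1 (chromosome 2, 36120438 to 36142284), went the other way. Its normalized counts at 4 h were 2249, 1926 and 1893 with DMSO and 1463, 1320 and 1405 with LPS. At 24 h they were 2763, 2524 and 2757 with DMSO, 3010, 2886 and 3242 with EtOH, and 1899, 1151 and 1506 with LPS. No LPS library reached the lowest vehicle library at its time. The log2 fold changes were -0.54 ± 0.0809 against DMSO at 4 h (adjusted p = 0.00373), -0.83 ± 0.141 at 24 h (adjusted p = 0.00163) and -1.02 ± 0.142 against EtOH at 24 h (adjusted p = 0.000411).

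The per-length ratio of Ptgs2 to Ptgs1 was 0.748, 1.36 and 1.04 in the DMSO libraries at 4 h and 8.07, 11.6 and 7.81 in the LPS libraries. At 24 h it was 1.43, 2.26 and 2.14 with DMSO and 5.57, 17.1 and 9.12 with LPS. The 2 transcripts were thus close to equal in some vehicle libraries, with Ptgs1 ahead in the lowest, while Ptgs2 was ahead in every library with LPS. The ratio was highest, at 22.1, in replicate 2 of LPS with MMF at 24 h.

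**Figure D2:**
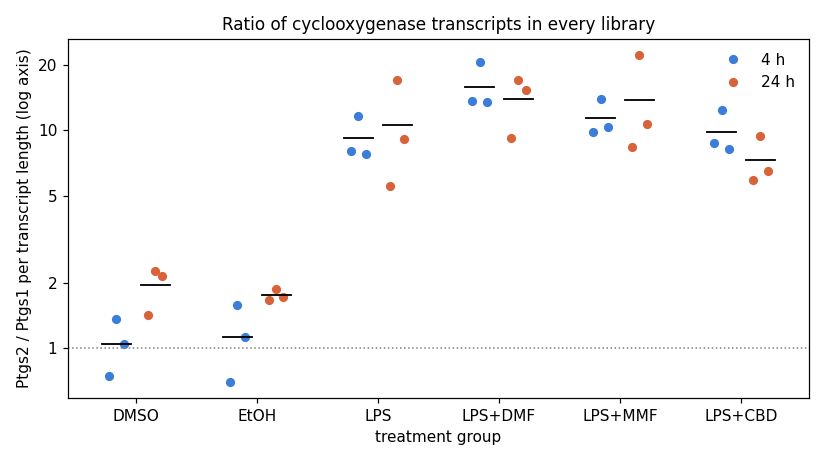
Ratio of Ptgs2 to Ptgs1 per transcript length (log axis) in every library (dots, blue 4 h and orange 24 h) of the 6 treatments, with group means as black bars and a dotted line at equal levels. Vehicle libraries lie between 0.704 and 2.26 and LPS libraries between 5.57 and 22.1.

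Ptges encodes the microsomal prostaglandin E synthase that is known to act after COX-2. Its counts were low, at 92.3, 108 and 94.2 with DMSO and 218, 293 and 234 with LPS at 4 h, and 122, 191 and 173 with DMSO and 370, 461 and 394 with LPS at 24 h. The groups did not overlap at either time. The log2 fold change against DMSO was 1.32 ± 0.151 at 4 h (adjusted p = 0.00107) and 1.36 ± 0.165 at 24 h (adjusted p = 0.000191), and against EtOH it was 1.25 ± 0.178 (adjusted p = 0.00396) and 1.28 ± 0.12 (adjusted p = 2.71e-05).

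The other prostaglandin E synthases changed little with LPS. Ptges2, a membrane-associated synthase, was called at 24 h only, at 527, 470 and 538 with LPS against 436, 342 and 430 with DMSO. Its log2 fold change was 0.36 ± 0.112 (adjusted p = 0.0372), and against EtOH 0.48 ± 0.113 (adjusted p = 0.0107). The call against DMSO was lost without DMSO replicate 5 (adjusted p = 0.142) or 6 (0.0602) or LPS replicate 1 (0.0845) or 3 (0.138), and that against EtOH without EtOH replicate 5 (0.0546) or LPS replicate 3 (0.061). Ptges3, also known as the HSP90 co-chaperone p23, differed by 0.23 at 4 h and 0.22 at 24 h against DMSO, with adjusted p-values of 0.0837 and 0.0687. Against EtOH at 24 h it differed by 0.21 (adjusted p = 0.0866, and 0.0316 without EtOH replicate 4).

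Pla2g4a, the cytosolic phospholipase, lies on the minus strand of chromosome 1, 139 kb from Ptgs2. With LPS at 24 h it was at 4453, 4441 and 4190 against 3579, 3783 and 3468 with DMSO, and the groups were apart. The log2 fold change was 0.29 ± 0.069 (adjusted p = 0.012), lost without DMSO replicate 6 (adjusted p = 0.0638). Against EtOH at 24 h it was 0.19 (adjusted p = 0.128), and at 4 h it was -0.05 against DMSO (adjusted p = 0.735). Against EtOH at 4 h it was -0.18 (adjusted p = 0.254), and 0.0322 without LPS replicate 2.

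Thromboxane synthase, Tbxas1, was the least abundant member, at 87.1, 76.0 and 73.2 with LPS at 24 h and 54.8, 42.1 and 44.6 with DMSO. Its log2 fold change against DMSO was 0.75 ± 0.184 (adjusted p = 0.0138), and against EtOH 0.67 ± 0.261 (adjusted p = 0.0945, and 0.0206 without EtOH replicate 4). The call against DMSO was lost without DMSO replicate 5 (adjusted p = 0.0524) and in a fit over all 36 libraries (adjusted p = 0.114). On the leukotriene side, Alox5, Alox5ap and Lta4h were not called for LPS at either time. Their log2 differences against DMSO ran from -0.32 to 0 at 4 h and from -0.1 to 0.23 at 24 h. Against EtOH at 4 h, Alox5 differed by -0.41 (95% interval -0.8 to -0.02, adjusted p = 0.179), Alox5ap by -0.08 and Lta4h by -0.02.

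**Figure D3:**
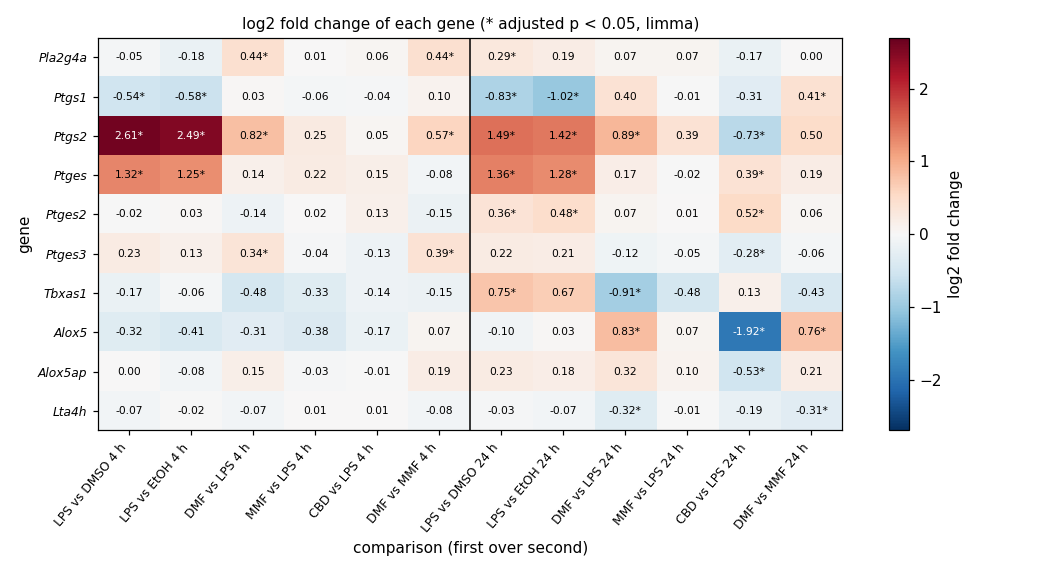
Log2 fold change (colour scale and printed value) of each gene (rows) in 12 comparisons (columns, 4 h left and 24 h right of the line), with an asterisk where limma's adjusted p was below the threshold of 0.05. The largest values are 2.61 for Ptgs2 with LPS at 4 h and -1.92 for Alox5 with CBD at 24 h.

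DMF added to LPS raised 3 members at 4 h and lowered none, against 11.1% of all genes tested that changed in that comparison. Ptgs2 was at 33057, 46072 and 32719 with DMF and LPS, and each of these was above the highest library with LPS alone. Pla2g4a was at 3955, 3960 and 3898 against 2755, 3266 and 2674 with LPS, and Ptges3 at 6606, 5363 and 6300 against 4863, 4604 and 4838. None of the 3 groups of libraries overlapped with LPS alone. No overlap was found for 4 of 10 members and for 30.1% of all genes tested.

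The log2 fold changes with DMF at 4 h were 0.82 ± 0.17 for Ptgs2 (adjusted p = 0.0152), 0.44 ± 0.0939 for Pla2g4a (adjusted p = 0.0162) and 0.34 ± 0.0917 for Ptges3 (adjusted p = 0.0423). The Ptgs2 call was lost without LPS replicate 1 (adjusted p = 0.0517) or 3 (0.0729). The Pla2g4a call was lost without LPS replicate 1 (0.063) or 3 (0.101) or DMF replicate 3 (0.0664). The Ptges3 call was lost without LPS replicate 1 (0.0963), 2 (0.0919) or 3 (0.153), or DMF replicate 1 (0.079) or 3 (0.17), and with no filter on low values (0.0638).

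DMF at 24 h raised Alox5 and Ptgs2 and lowered Tbxas1 and Lta4h, 4 of 10 members, where 25.1% of all genes tested changed. Alox5, the 5-lipoxygenase gene (chromosome 6, 116387038 to 116438139, minus strand), was at 308, 362 and 319 with DMF and LPS against 197, 172 and 183 with LPS. The lowest DMF library was well above the highest LPS library. At 24 h, 5 members and 42.4% of all genes tested had no overlap between DMF with LPS and LPS alone. DMF raised Alox5 by 0.83 ± 0.113 on the log2 scale, 1.78-fold, with an adjusted p of 0.000948, and it was called under every alternative but a limit of 1 on the log2 fold change.

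At 4 h, by contrast, Alox5 was at 98.7, 141 and 121 with DMF against 136, 173 and 137 with LPS, a difference of -0.31 (adjusted p = 0.338). The effect of DMF on Alox5 differed between the times by 1.14 ± 0.21 on the log2 scale (adjusted p = 0.00231), in an interaction test that called 16.3% of all genes and 3 of the 10 members. The other 2 called were Ptges3, with -0.46 ± 0.117 (adjusted p = 0.0151), and Pla2g4a, with -0.37 ± 0.115 (adjusted p = 0.0394). The Ptges3 call held under every alternative but the fold change limit of 1. The Pla2g4a call was lost without any one of 11 of the 12 libraries in turn, the exception being replicate 2 of LPS at 4 h, with adjusted p-values up to 0.115, and by edgeR (0.0518) and with no filter (0.0604). Ptgs1 differed between the times by 0.37 (adjusted p = 0.214, 0.0395 with the replicate block and 0.0396 without LPS replicate 1 at 24 h).

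Ptgs2 at 24 h was at 32649, 49781 and 51159 with DMF and LPS, and its lowest value was just above the highest with LPS alone, 32507. The log2 fold change was 0.89 ± 0.214 (adjusted p = 0.0136), lost without LPS replicate 3 (adjusted p = 0.0578) or DMF replicate 3 (0.0657). Tbxas1 was at 55.4, 32.8 and 39.0 with DMF, below all LPS libraries, with a log2 fold change of -0.91 ± 0.217 (adjusted p = 0.0133), lost without DMF replicate 3 (0.0571).

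Lta4h, which encodes leukotriene A4 hydrolase, was at 841, 733 and 772 with DMF at 24 h against 1037, 927 and 971 with LPS. The groups were apart, and the log2 fold change was -0.32 ± 0.0865 (adjusted p = 0.0214). It was lost without LPS replicate 1 (adjusted p = 0.0642) or 3 (0.0692) or DMF replicate 2 (0.0848) or 3 (0.0861). Alox5ap, which encodes the 5-lipoxygenase activating protein, was at 1364, 1884 and 1527 against 1174, 1426 and 1206, a difference of 0.32 (adjusted p = 0.0708, 0.00278 with the replicate number as a block, 0.0378 by DESeq2, 0.0257 without LPS replicate 2 and 0.0253 without DMF replicate 1). Ptgs1 differed by 0.4 (adjusted p = 0.0853, 0.00312 with the block and 0.0109 without LPS replicate 1).

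MMF with LPS moved none of the 10 genes past the threshold at 4 h, where 0.122% of all genes tested changed, or at 24 h, where 0% changed. For all genes at 24 h, limma called 0 and edgeR 0, DESeq2 called 17, and 440 genes had an unadjusted p below 0.05. With the replicate number as a block, limma called 206 genes at 24 h. Ptgs2 was at 22665, 28422 and 23407 with MMF at 4 h, overlapping LPS alone, with a log2 difference of 0.25 (95% interval -0.06 to 0.57). At 24 h it was at 23731, 48774 and 25047, of which replicate 2 was far above the others. The difference at 24 h was 0.39 (95% interval -0.24 to 1.01, adjusted p = 1), and 0.06 without that library.

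Replicate 2 was the highest Ptgs2 library with LPS alone too (17503, 32507 and 22737), and it was kept in the fit without MMF replicate 2. Each MMF library at 24 h was above the LPS library of the same number. A fit that blocked on the replicate gave the Ptgs2 difference of 0.39 an adjusted p of 0.00103. Alox5 with MMF was at 95.6, 121 and 123 at 4 h, each below every LPS library, with a difference of -0.38 (adjusted p = 0.676). No overlap at 4 h held for 1 member and for 13.5% of all genes tested. The interaction test of MMF between the times called 0% of genes and no member, with 385 genes at an unadjusted p below 0.05 and 0 calls by edgeR or DESeq2. With the replicate block it called 5 genes.

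DMF and MMF, the dimethyl and the monomethyl ester of fumaric acid, were given at the same dose and times. At 4 h, 3 members were higher with DMF than with MMF and none was lower, where 8.34% of all genes tested differed. These were Ptgs2 at 0.57 ± 0.149 (adjusted p = 0.043), Pla2g4a at 0.44 ± 0.0875 (adjusted p = 0.014) and Ptges3 at 0.39 ± 0.0925 (adjusted p = 0.029) on the log2 scale. The groups did not overlap for these 3 members, nor for 29.6% of all genes tested. The Ptgs2 call was lost without DMF replicate 2 (0.0587) or 3 (0.0725) or MMF replicate 1 (0.136) or 3 (0.154), with no filter (0.0651) and in the fit over all 36 libraries (0.1). The Pla2g4a call was lost without DMF replicate 3 (0.0627) or MMF replicate 1 (0.0604) or 3 (0.0526). The Ptges3 call was lost without any one library but DMF replicate 2, with adjusted p-values up to 0.127.

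At 24 h Alox5 was higher with DMF than with MMF, at 181, 199 and 200 with MMF, by 0.76 ± 0.104 (adjusted p = 0.00149). Ptgs1 was also higher, by 0.41 ± 0.105 (adjusted p = 0.0223), and Lta4h was lower, by -0.31 ± 0.0828 (adjusted p = 0.0253), where 21.5% of all genes tested differed. The Alox5 call held under every alternative but the fold change limit of 1. The Ptgs1 call was lost without DMF replicate 1 (adjusted p = 0.0511) or 3 (0.0922) or MMF replicate 3 (0.0824). The Lta4h call was lost without DMF replicate 2 (0.0899) or 3 (0.0984) or MMF replicate 1 (0.0937) or 3 (0.0926).

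Ptgs2 differed between the esters at 24 h by 0.5 (95% interval -0.07 to 1.08, adjusted p = 0.186, and 0.00566 with the replicate block), and by 0.83 without MMF replicate 2 (adjusted p = 0.00538). Alox5ap differed by 0.21 (adjusted p = 0.312, and 0.00543 with the block). Tbxas1 differed by -0.43 (adjusted p = 0.456, and 0.0292 without MMF replicate 2). For Ptges the interval of the difference between the esters was -0.48 to 0.32 at 4 h and -0.18 to 0.57 at 24 h. For Pla2g4a at 24 h it was -0.13 to 0.13, and for Ptges3 -0.21 to 0.09.

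CBD with LPS moved none of the 10 genes at 4 h, where 0.00875% of all genes tested, that is 1 gene, changed. Their log2 differences ran from -0.17 for Alox5 to 0.15 for Ptges. Ptgs2 was at 19881, 26347 and 18969, overlapping LPS alone, with a difference of 0.05 (95% interval -0.3 to 0.41).

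At 24 h, CBD lowered Alox5, Ptgs2, Alox5ap and Ptges3 and raised Ptges2 and Ptges, 6 of 10 members, where 48.7% of all genes tested changed. The median over the 10 genes was -0.24 on the log2 scale and that over all genes 0. Alox5 was at 51.6, 59.4 and 35.8 with CBD, and every library was below the lowest of all other groups. Against LPS the log2 fold change was -1.92 ± 0.198, 3.77-fold lower, with an adjusted p of 7.07e-05, and the call held under every alternative.

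The effect of CBD on Alox5 differed between the times by -1.74 ± 0.272 (adjusted p = 0.000345), in an interaction test that called 32% of all genes and 2 members. The other was Ptges2, with 0.4 ± 0.131 (adjusted p = 0.0317), a call lost without LPS replicate 2 or 3 or CBD replicate 1 or 2 at 4 h, or LPS replicate 2 or CBD replicate 1 or 3 at 24 h, with adjusted p-values up to 0.0806. For Ptgs2 the difference between the times was -0.78 (adjusted p = 0.0533, 0.000555 with the replicate block, 0.0435 by edgeR and 0.0131 by DESeq2). It passed without LPS replicate 2 at 4 h (0.0245), LPS replicate 1 at 24 h (0.0143) or CBD replicate 2 at 24 h (0.0366). With the block, Ptgs1 at -0.27 (adjusted p = 0.0416) and Alox5ap at -0.52 (adjusted p = 0.0118) passed too.

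Ptgs2 at 24 h was at 13741, 16577 and 12397 with CBD, all below the lowest LPS library and all above the highest vehicle library. The log2 fold change against LPS was -0.73 ± 0.198 (adjusted p = 0.0132). Ptges moved in the opposite direction, at 489, 619 and 499 with CBD, all above LPS alone, by 0.39 ± 0.124 (adjusted p = 0.0252). This call was lost without LPS replicate 1 (0.0829) or 3 (0.0835) or CBD replicate 2 (0.081), and in the fit over all 36 libraries (0.0782).

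Ptges2 was at 734, 675 and 793 with CBD at 24 h, its highest group, and rose by 0.52 ± 0.0993 (adjusted p = 0.00213). Ptges3 was at 2631, 2583 and 2741 and fell by 0.28 ± 0.0694 (adjusted p = 0.00822). The groups did not overlap for either gene. No overlap between CBD with LPS and LPS alone at 24 h held for 8 of 10 members and for 58.7% of all genes tested. The calls of Ptges2 and Ptges3 held under every alternative but the fold change limit of 1.

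Alox5ap was at 898, 1171 and 626 with CBD at 24 h, of which replicate 2 lay just below the lowest LPS library. Its log2 fold change was -0.53 ± 0.19 (adjusted p = 0.0417). The call was lost by edgeR (adjusted p = 0.0568) and without LPS replicate 1 (0.0662), 2 (0.104) or 3 (0.0833) or CBD replicate 1 (0.0761) or 3 (0.105). Lta4h differed by -0.19 (adjusted p = 0.0876, and 0.037 with the replicate block) and Ptgs1 by -0.31 (adjusted p = 0.164, 0.00645 with the block and 0.0154 without LPS replicate 2).

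**Figure D4:**
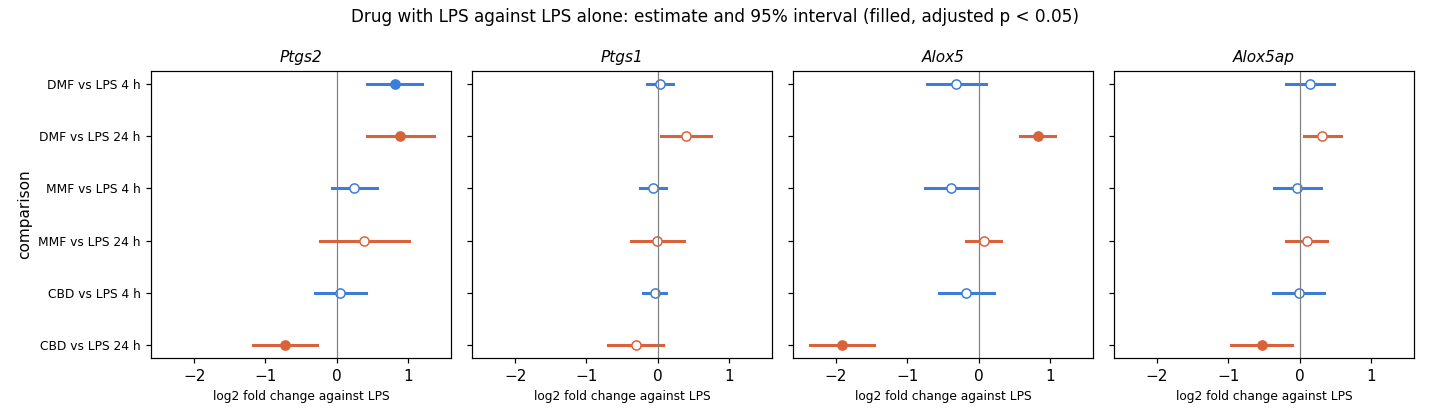
Log2 fold change of 4 genes for each drug with LPS against LPS alone (dots, blue 4 h and orange 24 h, filled where adjusted p was below 0.05) with its 95% interval (bars). Alox5 at 24 h lies at 0.83 with DMF, 0.07 with MMF and -1.92 with CBD, and Ptgs2 at 0.89, 0.39 and -0.73.

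All drug groups share the LPS libraries of their time, so their fold changes are not independent of each other. Side by side at 24 h, Alox5 had normalized counts of 330 ± 28.5 (SD, n = 3) with DMF, 193 ± 10.9 with MMF, 184 ± 12.7 with LPS alone and 48.9 ± 12.1 with CBD. In the vehicles it was at 199 ± 16.6 and 185 ± 45.0. Ordered by mean, DMF was above all other groups, DMSO, MMF, EtOH and LPS overlapped, and CBD was below all of them. For Ptgs2 the order at 24 h was 44530 ± 10312 with DMF, 32517 ± 14094 with MMF, 24249 ± 7615 with LPS, 14238 ± 2134 with CBD, 8837 ± 453 with EtOH and 8580 ± 1782 with DMSO. Its libraries overlapped between DMF and MMF, between MMF and LPS, and between the vehicles.

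The vehicles themselves were compared as a background. No member differed between DMSO and EtOH at 4 h, where limma called 0% of genes tested, with 1051 genes at an unadjusted p below 0.05, 0 calls by edgeR and 87 by DESeq2. With the replicate number as a block, limma called 876 genes at 4 h and 20 at 24 h, none of them a member. None differed at 24 h, where 0.00854% were called. Ptgs1 was the only member whose vehicle groups did not overlap at 24 h, with a difference of -0.19 (adjusted p = 0.997). The vehicle groups did not overlap for 8.9% of all genes tested at that time.

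Exposure time moved many genes in every treatment. Between 4 h and 24 h, 51.6% of all genes tested changed with DMSO and 7 of 10 members did, and 58.6% and 7 members with EtOH. In both vehicles, Ptgs2, Ptgs1, Ptges and Pla2g4a rose and Ptges2, Ptges3 and Tbxas1 fell. Ptgs2 rose by 1.29 ± 0.167 with DMSO (adjusted p = 0.000144) and 1.23 ± 0.162 with EtOH (adjusted p = 0.000122), so the LPS effect at 24 h was measured over a higher vehicle level. With EtOH, the Tbxas1 and Pla2g4a calls were each lost without EtOH replicate 5 or 6 at 24 h or 4 or 6 at 4 h, with adjusted p-values up to 0.089 and 0.145.

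With LPS alone, 48.9% of genes and 3 members changed with time: Pla2g4a rose by 0.59 ± 0.0919 (adjusted p = 0.000748), Ptges rose by 0.71 ± 0.137 (adjusted p = 0.00219), and Ptges3 fell by 0.57 ± 0.0737 (adjusted p = 0.000311). Without LPS replicate 2 at 4 h, 5 members were called, Alox5 (adjusted p = 0.0248) and Alox5ap (0.00387) in addition. Over all libraries these had adjusted p-values of 0.0955 and 0.159, the latter 0.0313 with the replicate block. With DMF, 58.8% of genes and 6 members changed, among them Alox5, up by 1.45 ± 0.154 (adjusted p = 2.99e-05), and Ptges3, which fell by 1.03 ± 0.0947 (adjusted p = 1.47e-05). Pla2g4a rose by 0.21 with DMF (adjusted p = 0.0296), a call lost without DMF replicate 2 (0.116) or 3 (0.0967) at 24 h or replicate 3 at 4 h (0.0847), and Alox5ap rose by 0.43 (adjusted p = 0.0113), lost without DMF replicate 2 at 24 h (0.0503).

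With MMF, 49.5% of genes and 5 members changed, Alox5 by 0.77 ± 0.146 (adjusted p = 0.00126). Without MMF replicate 2 at 24 h or replicate 1 at 4 h, 3 members were called, with Ptges (adjusted p = 0.0847 and 0.0701) and Alox5ap (0.0681 and 0.0723) lost. Ptges was also lost without MMF replicate 3 at 4 h (0.0706), and Alox5ap in the fit over all 36 libraries (0.0536). Ptgs2 differed by 0.31 with MMF (adjusted p = 0.259, and 0.0421 with the replicate block), and by -0.02 without replicate 2 at 24 h. With CBD, 63.2% of genes and 5 members changed, and Alox5 fell by 1.44 ± 0.224 (adjusted p = 0.000336). Ptgs2 fell by 0.62 ± 0.141 with CBD (adjusted p = 0.00359), where with LPS alone it differed by 0.17 (adjusted p = 0.531). Over all libraries, Ptges3 fell and Pla2g4a and Ptges rose with time in all 6 treatments, with the Pla2g4a calls of EtOH and DMF and the Ptges call of MMF lost without single libraries.

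Over the 12 group means, the gene whose pattern was most like that of Ptgs2 was Slc23a2 (Pearson r = 0.965), followed by Filip1l (0.95), Stx12 (0.946), Jdp2 (0.945) and Cxcl3 (0.938), of 10558 genes compared. For Alox5 the nearest were Abca1 (0.956), Epha2 (0.953), Il17ra (0.941), Gnai2 (0.932) and Srebf1 (0.926). The correlation does not take in the size of the changes. On the log2 scale, the group means of the genes like Ptgs2 covered from 0.43 (Stx12) to 4.13 (Cxcl3), against 3.68 for Ptgs2. Those of the genes like Alox5 covered from 0.54 (Gnai2) to 3.42 (Abca1), against 2.75 for Alox5. Among the members, Ptgs2 and Ptges had r = 0.85, Alox5 and Alox5ap 0.8, and Ptgs1 and Ptges2 -0.81. These are descriptions over groups that share cell line, time points and the LPS treatment.

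Of 46 other eicosanoid genes listed, 45 were in the tables and 29 to 33 were tested per comparison. With LPS at 4 h, 2 rose and 3 fell of 29 tested against DMSO, where 14.1% of all genes changed, and 1 rose of 31 against EtOH, where 10.2% did. Acsl4, an acyl-CoA synthetase that prefers arachidonic acid, rose by 0.71 and 0.52 on the log2 scale (adjusted p = 0.000666 and 0.00725). At 24 h, 6 rose and 4 fell of 33 against DMSO, where 22.7% of all genes changed, and 5 rose and 4 fell of 33 against EtOH, where 20.5% did. Mgst2, a glutathione transferase able to make leukotriene C4, rose by 0.85 and 0.89 (adjusted p = 0.0078 and 0.00256), and Hpgds, hematopoietic prostaglandin D synthase, differed by -0.75 and -0.84 (adjusted p = 0.0166 and 0.00812).

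With DMF at 4 h, 5 of these genes rose and 1 fell of 30 tested, where 11.1% of all genes changed, and their median difference was 0.1 against 0.01 over all genes. Ptgr1, a reductase that inactivates prostaglandins and leukotriene B4, was at 1493, 854 and 976 against 396, 348 and 333 with LPS, a rise of 1.58 (adjusted p = 0.000987). The exporters Abcc1 and Abcc4 rose by 1.12 (adjusted p = 0.000999) and 0.61 (adjusted p = 0.00624), and the cysteinyl leukotriene receptor Cysltr1 fell by 0.79 (adjusted p = 0.00683). At 24 h, 7 rose and 4 fell of 33, where 25.1% of all genes changed. The prostaglandin E2 receptor Ptger2 was at 342, 454 and 416 against 132, 171 and 144 with LPS, a rise of 1.43 (adjusted p = 0.000138).

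MMF called none of these genes at either time, and CBD none at 4 h. With CBD at 24 h, 11 rose and 6 fell of 33, a share close to the 48.7% of all genes that changed. Hpgds was at 452, 318 and 364 against 66.2, 57.8 and 60.7 with LPS, a rise of 2.59 (adjusted p = 4.65e-06). Alox15, a second lipoxygenase, rose by 2.41 (adjusted p = 8.65e-05), from 16.6, 16.0 and 20.2 with LPS to 113, 66.9 and 120. The prostacyclin receptor Ptgir was at 7970, 7114 and 9972 against 2338, 2495 and 2653, a rise of 1.73 (adjusted p = 9.35e-06). None of these groups overlapped with LPS alone, and 58.7% of all genes tested had no overlap in that comparison.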

How the data were processed

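Poly(A)+ RNA was sequenced from 36 BV-2 libraries, and groups and replicate numbers were taken from the sample titles. Per the submitters' processing notes, reads were trimmed with cutadapt 4.4 and Trimmomatic 0.39, aligned with HISAT2 2.2.1 to GRCm39 and counted with HTSeq 2.0.3, and the strand setting is not given in the sources used here. The authors deposited 30 tables, each of 6 libraries, whose signal values are gene counts divided by DESeq2 1.40.2 size factors of that table. The authors' fold changes and p-values in the same tables were not used. Whole reads were recovered from the steps of the values, and 100% of 3127002 values came out whole within 0.01 read. A gene that no table lists for a library was set to 0 there (34974 pairs of a gene and a library, none of them a member).

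Each pair of groups was tested with limma 3.58.1 (R 4.3.3) on log2(deposited signal + 1) over genes with at least 10 in at least 3 of the 6 libraries, so fold changes of low genes are understated. Calls are Benjamini-Hochberg adjusted p below 0.05 over all genes tested. Interactions between times used recovered reads divided by size factors over all 36 libraries. Alternatives were edgeR 4.0.16 and DESeq2 1.42.0 on recovered reads, TMM scaling, a pseudocount of 5, no filter, one fit over 36 libraries, a limit of 1 on the log2 fold change, each library left out, and the replicate block. The scripts were tested on simulated data. P-values measure the spread between these libraries, said only to be repeats of the experiment.

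Same-numbered libraries deviated together (every pair's correlation over 0.1 across 10096 genes) in DMF and CBD against LPS at 4 h, in all drug and vehicle comparisons at 24 h, in DMSO against EtOH at 4 h and in the time comparisons of LPS and MMF. The pairing is thus taken from the data and the shared number. MMF against LPS or DMF at 4 h and the other time comparisons did not meet this, and LPS and vehicle libraries share no number.

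All 10 members are named. Of the other eicosanoid genes up to 4 called genes per comparison were eligible to be named, by size of change, with a mean of at least 50 in the higher group. Lists and members were chosen with earlier results of these data known. Transcript lengths are from GENCODE on GRCm39. Antisense genes outside the tables share exon bases with Ptgs2 (476), Alox5 (449), Ptges (317), Alox5ap (189), Ptgs1 (148), Tbxas1 (144) and Ptges3 (39).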

Additional observations from a re-analysis of the deposited data

Results flagged for a closer look

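In 7 cases an effect on one of the 10 genes differed between 24 h and 4 h by limma's interaction test over all genes. The effect of LPS on Ptgs2 was smaller at 24 h by -1.14 against DMSO (adjusted p = 0.0336) and by -1.08 against EtOH (adjusted p = 0.04). The effect of DMF changed for Alox5 by 1.14 (adjusted p = 0.00231), for Ptges3 by -0.46 (adjusted p = 0.0151) and for Pla2g4a by -0.37 (adjusted p = 0.0394). The effect of CBD changed for Alox5 by -1.74 (adjusted p = 0.000345) and for Ptges2 by 0.4 (adjusted p = 0.0317). All values are log2 differences. These tests called 9.46% of all genes for LPS against DMSO, 9% for LPS against EtOH, 16.3% for DMF and 32% for CBD. The Alox5 calls held under every alternative, and the Ptges3 call under every one but the fold change limit of 1. The calls of Ptgs2, Pla2g4a and Ptges2 were each lost when single libraries were left out.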

How the results depend on the processing

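Of 75 pairs of a gene and a comparison that passed the threshold, 48 did so under every alternative except the fold change limit. The counts of values that follow cover only pairs called under at least 1 setting. Calls lost by the fold change limit are included in them. Over the 1525 values of single genes under alternatives, 1297 kept their direction and side of the threshold, 172 lost the call, 55 gained it and 1 changed sign: Ptgs2 with MMF between the times, which ran from -0.02 to 0.49 when single libraries were left out. A limit of 1 on the log2 fold change left 0 members for DMF against LPS at 4 h and 24 h, DMF against MMF at both times and the time comparisons of LPS and MMF, 2 for LPS against DMSO at 24 h, 1 for CBD against LPS at 24 h, 2 for the time comparisons of DMSO and DMF, 1 for those of EtOH and CBD, and 1 for the interactions of DMF and CBD. The interaction of LPS with time called 0 members by DESeq2 against DMSO, and 0 by edgeR and 0 without the filter against EtOH. Leaving out one library each gave 0 to 3 members for DMF against LPS at 4 h and 1 to 5 at 24 h, 0 to 2 for DMF against MMF at 4 h and 1 to 5 at 24 h, 3 to 5 for LPS and 3 to 6 for MMF between the times, 0 to 2 for both LPS interactions and 1 to 4 for the CBD interaction. The calls over all genes moved too. DMF against LPS called 1257 genes at 4 h and 597 without LPS replicate 3, and 2926 at 24 h and 1352 without DMF replicate 3. No count over all genes was made for the fold change limit. The cause of these changes was not tested.

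With the replicate number as a block, 1 member was called for MMF against LPS at 24 h, 5 for DMF against MMF at 24 h and 5 for the CBD interaction. Beside the calls given with the results, it gained Alox5ap with LPS between the times (adjusted p = 0.0313), Ptgs2 with MMF (0.0421), Ptges2 with CBD (0.0225) and Ptgs1 in the DMF interaction (0.0395), and changed no other call of a member. LPS and vehicle libraries share no replicate number, so those comparisons have no such fit. Over all genes it called 4566 instead of 2926 for DMF against LPS at 24 h, 4639 instead of 2508 for DMF against MMF at 24 h and 206 instead of 0 for MMF against LPS at 24 h. For the CBD interaction it called 5201 instead of 3832, of 11959 genes tested. For MMF against LPS at 4 h, limma called 14 genes, DESeq2 53 and the block 179, and for DMSO against EtOH at 4 h 0, 87 and 876. With 3 libraries a group, lone samples in the fits that leave one out are assumed to vary like the others. Low counts limit Tbxas1, whose libraries varied by up to 53.0% (CV).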
